A study of Homo sapiens with 8 samples.

Results

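Cytochrome P450 enzymes of the drug, fatty acid, vitamin and steroid families were compared between HepG2 cells grown flat and HepG2 cells grown on a scaffold. The members were the protein-coding genes whose symbol begins with CYP and a digit. CYP51A1, CYP7A1, CYP7B1, CYP8B1 and CYP27A1, which belong to sterol and bile acid synthesis, were left out by the rule. This left 52 of 57 such genes, among 38032 gene identifiers in the files, and all 52 were listed. Of these, 26 reached 10 counts in at least 2 of the 8 libraries and were tested, 18 had counts but stayed under that minimum, and 8 were at 0 in every library.

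HepG2 is a human hepatocellular carcinoma cell line, here from the ECACC collection and with the genotype given as WT. The 2D-primed group held 4 libraries of cells kept for 8 days on conventional flat culture-ware, and the 3D-primed group held 4 libraries of cells kept for 8 days on Alvetex, a porous and inert polystyrene scaffold. Both groups came from the same line and were released with trypsin before their polyadenylated RNA was sequenced, and the labels name no drug or P450 inducer for either group. The cells were seeded at a different number on each substrate, and the line is a tumour line, which limits it as a model of adult liver.

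P450 enzymes are heme proteins of the endoplasmic reticulum or the mitochondrion that insert an oxygen atom into a substrate, with electrons passed to them by a reductase. In liver, the CYP1, CYP2 and CYP3 families oxidise drugs, carcinogens and other foreign compounds, and several of their genes are switched on by the ligand-bound receptors AHR (aryl hydrocarbon receptor), NR1I2 (pregnane X receptor) and NR1I3 (constitutive androstane receptor). The CYP4 family hydroxylates the end of fatty acid chains, and a small set of P450 enzymes makes or breaks down active vitamin D and retinoic acid. Hepatoma lines are known to hold low levels of many adult liver P450 enzymes.

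The libraries held 21599630 to 27844077 counts. Levels are given as CPM, which are counts scaled to a common library size by TMM (a scaling that rests on the bulk of the genes), and changes as log2 fold changes of 3D-primed over 2D-primed from edgeR. A gene was called where the adjusted p was below 0.05. By this rule 8916 of the 13943 genes tested in the series, or 63.9%, were called. Hepatocyte markers were abundant in all libraries, with ALB, AFP, APOA1, TTR, SERPINA1, HNF4A and GPC3 summing to 50103 to 54250 CPM across 2D-primed and 77000 to 88160 CPM across 3D-primed libraries, and 6 of these 7 were called higher in 3D-primed cells and 1, SERPINA1, lower. In bulk RNA, fewer cells of a type and less RNA per cell cannot be told apart. Markers of other cell types were checked beside them. Of 5 fibroblast markers, COL1A2, COL3A1 and DCN stayed at 2 counts or fewer and the list summed to 11.0 to 12.2 CPM across 2D-primed and 15.1 to 18.1 CPM across 3D-primed libraries. Most of that sum was PDGFRB, which rose from 10.7 ± 0.4 to 16.4 ± 1.2 CPM (SD, n = 4, edgeR adjusted p = 1.8e-05). COL1A1 passed the count minimum through its 2D-primed libraries alone and fell from 0.969 ± 0.226 to 0.0703 ± 0.0490 CPM (edgeR adjusted p = 9.6e-05). Of 4 endothelial markers, KDR stayed at 1 count or fewer, with sums of 5.58 to 7.72 CPM and 4.16 to 5.70 CPM. CDH5 fell from 4.73 ± 0.70 to 1.59 ± 0.33 CPM (edgeR adjusted p = 2.7e-05), VWF rose from 1.11 ± 0.30 to 1.71 ± 0.24 CPM (edgeR adjusted p = 0.03) and PECAM1 was not called. Among 5 leukocyte markers PTPRC stayed at 2 counts or fewer and CD163 was at 0, while the list summed to 2194 to 2286 CPM and 2421 to 3027 CPM, nearly all of it LYZ, which rose by 0.28 in log2 units (edgeR adjusted p = 0.0024). CD68 fell from 72.7 ± 1.1 to 34.4 ± 4.0 CPM (edgeR adjusted p = 6.3e-07) and CD14 rose from 1.65 ± 0.16 to 2.83 ± 0.44 CPM (edgeR adjusted p = 0.0017). The part of these marker genes in the P450 values was not tested.

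Of the 26 tested members, 13 were higher and 4 were lower in 3D-primed cells, and 9 were not called. The 17 called members are 65.4% of those tested, close to the 63.9% over all genes tested. The direction was uneven, with 13 of 26 higher and 4 of 26 lower, where 32.4% of all genes tested were called higher and 31.6% lower. The median log2 fold change was 0.46 over the members and 0.013 over all genes tested. The groups of 4 libraries did not overlap for 17 of the 26 members, which were those called, or 65.4%, against 59.8% of all genes tested (30.2% higher and 29.5% lower). DESeq2 called 16 of the 26 members and 60.3% of all genes tested. Changes of at least 2-fold were seen in 6 members that rose and 3 that fell, against 4.86% and 7.01% of all genes tested. No 2D-primed library reached 10 counts for CYP3A43, CYP1A2 and CYP4A11 and no 3D-primed library did for CYP4F22 and CYP11A1, so that their place among the tested genes is not independent of their direction. Leaving out 2D-primed replicate 2, a library described with the low-count enzymes, left 13 members higher and 4 lower. In that fit 4261 of 13881 genes tested were called higher and 4190 lower.

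**Figure D1:**
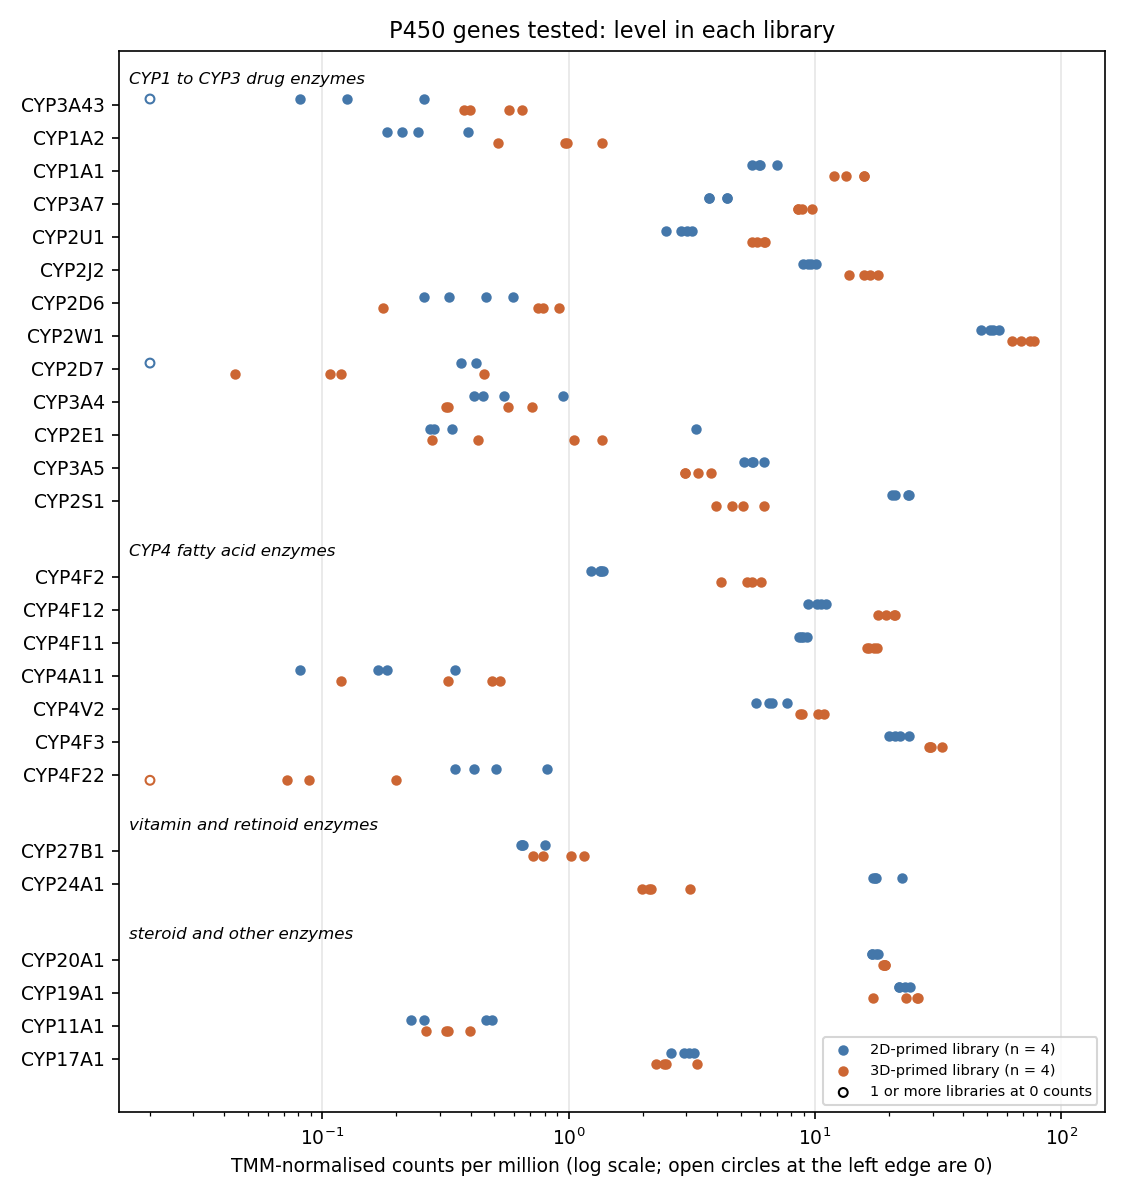
TMM-normalised CPM (log axis) of the 26 tested P450 genes in each of the 8 libraries, blue for 2D-primed and orange for 3D-primed, grouped by family and sorted by change, where open circles at the left edge are libraries at 0. The colours do not overlap for 17 genes, and CYP24A1 and CYP2S1 show the widest gap among genes above 1 CPM.

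**Figure D2:**
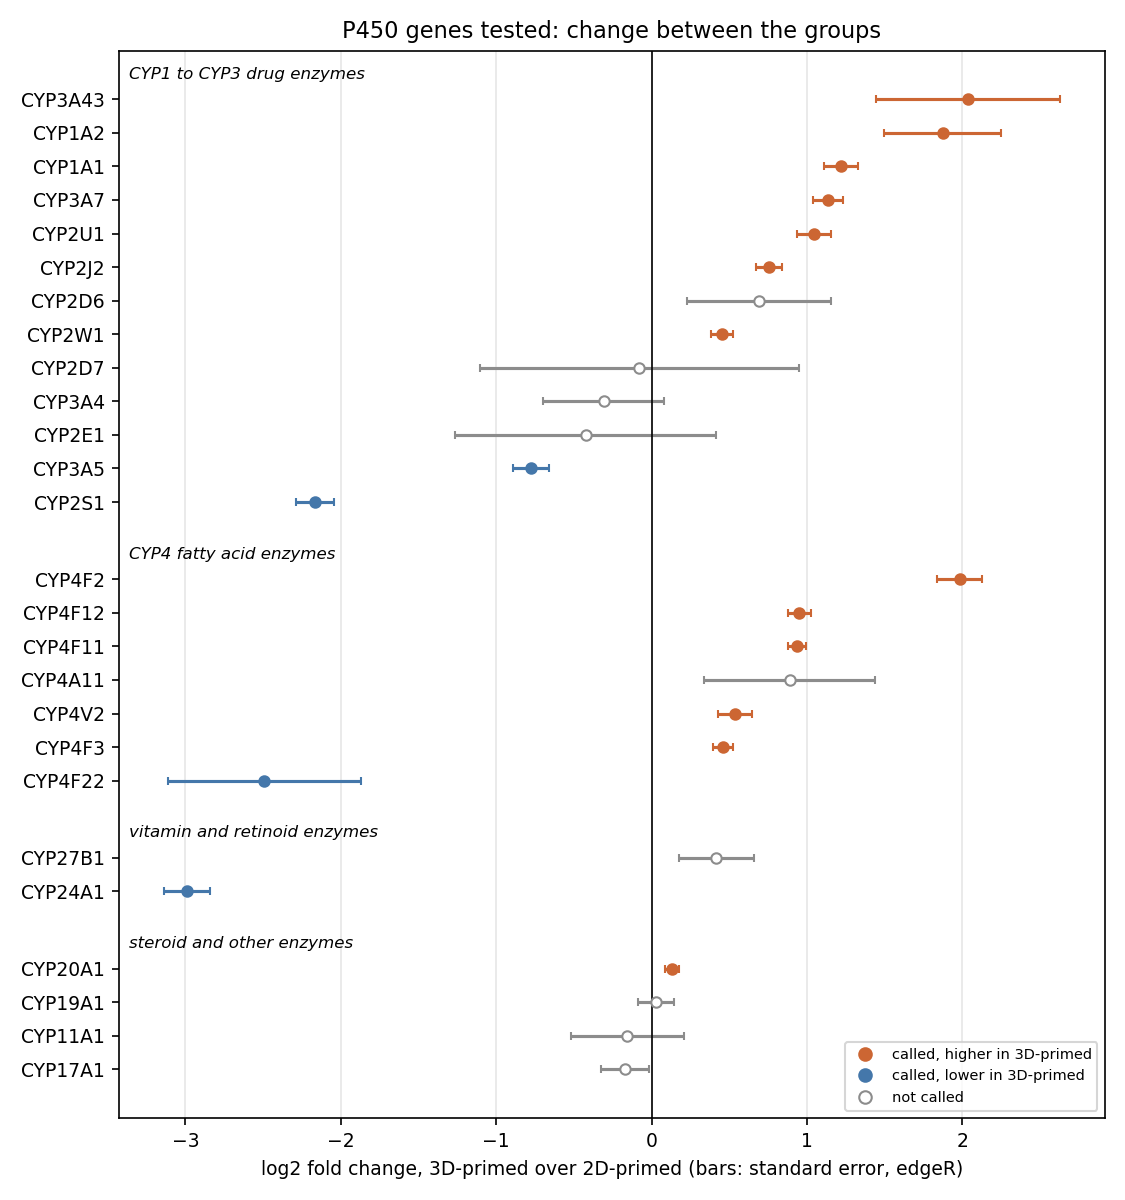
Log2 fold change of 3D-primed over 2D-primed for the 26 tested P450 genes, with bars of 1 standard error from edgeR, where filled points were called and open grey points were not. Changes run from -2.99 for CYP24A1 to 2.04 for CYP3A43.

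The drug enzymes of the CYP1 to CYP3 families held 24 members, of which 13 were tested. Among these, 7 rose in 3D-primed cells, 2 fell and 4 were not called, with a median log2 fold change of 0.69. The called share was 69.2%, near the 63.9% over all genes tested, of which 32.4% were called higher and 31.6% lower. Their summed level was 100.6 to 114.9 CPM across 2D-primed and 125.0 to 134.4 CPM across 3D-primed libraries. That sum is weighted to the abundant genes. CYP2W1 made up much of it and had the largest rise in CPM, its 2D-primed mean of 51.9 CPM becoming 71.0 CPM with 3D priming. The largest fall was that of CYP2S1, whose mean went from 22.4 CPM (2D-primed) to 4.97 CPM (3D-primed). The sum therefore does not speak for the scarcer drug enzymes. The genes that rose included both tested CYP1A enzymes, the fetal enzyme CYP3A7, the fatty acid epoxygenase CYP2J2 and the abundant CYP2W1. The genes that fell were CYP2S1 and CYP3A5.

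CYP1A1 and CYP1A2 oxidise polycyclic hydrocarbons and aromatic amines and are textbook targets of AHR. CYP1A1 stood at 5.54, 6.01, 5.94 and 7.0 CPM in the 4 2D-primed libraries and at 15.8, 13.3, 15.8 and 12.0 CPM in the 4 3D-primed libraries. The lowest 3D-primed library was well above the highest 2D-primed library, and CYP1A1 rose by a log2 fold change of 1.22 ± 0.11 (SE, n = 4 a group, edgeR adjusted p = 5.3e-06). CYP1A2, which clears caffeine in adult liver, was scarcer, with 0.183, 0.389, 0.244 and 0.211 CPM across 2D-primed and 0.981, 1.37, 0.968 and 0.516 CPM across 3D-primed libraries. These rest on 4, 9, 6 and 5 against 26, 31, 27 and 13 counts, so that CYP1A2 passed the count minimum through its 3D-primed libraries alone. Its groups did not overlap either, and the log2 fold change was 1.87 ± 0.38 (SE, edgeR adjusted p = 0.0013). Without 2D-primed replicate 2, its highest library in that group, the value was 2.14 (edgeR adjusted p = 0.0015). CYP1B1, the extrahepatic member of the family, had 0 to 3 counts in any library and was not tested.

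The pair lies side by side on chromosome 15 (GRCh38), with CYP1A1 at 74719542 to 74725536 on the minus strand and CYP1A2 at 74748845 to 74756607 on the plus strand, so that the genes are read away from each other. Their promoters are shown because AHR and its partner ARNT bind the core word GCGTG. The 250 bases before each RefSeq start (GRCh38.p14) are written 5′ to 3′ on the gene's own strand, with GCGTG in capitals. CYP1A1 is read from chr15:74725529-74725778 (minus strand) and CYP1A2 from chr15:74748595-74748844 (plus strand).
CYP1A1: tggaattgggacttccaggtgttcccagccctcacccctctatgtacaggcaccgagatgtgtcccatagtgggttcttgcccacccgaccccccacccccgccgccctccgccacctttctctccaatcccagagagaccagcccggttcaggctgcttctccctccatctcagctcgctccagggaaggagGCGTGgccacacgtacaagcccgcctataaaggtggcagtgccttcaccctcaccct
CYP1A2: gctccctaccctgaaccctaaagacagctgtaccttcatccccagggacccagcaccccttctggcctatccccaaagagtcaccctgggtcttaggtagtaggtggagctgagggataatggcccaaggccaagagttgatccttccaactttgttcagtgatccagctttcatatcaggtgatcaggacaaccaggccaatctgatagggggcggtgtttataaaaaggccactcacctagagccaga
The CYP1A1 stretch holds 1 match, which begins 57 bases before the start, and the CYP1A2 stretch holds none on either strand. Sequence further from the starts was not searched, so that neither result speaks for the rest of the stretch between the genes. GCGTG occurs on either strand of 12832 of 35116 RefSeq windows of 300 bases (250 before and 50 after a start), or 36.5%, so that a match in such a window is common. Among the 20 tested members that had a window, 8 held the word.

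CYP3A43, a minor member of the CYP3A family, rose, rests on few counts and passed the count minimum through its 3D-primed libraries alone. It had 0, 6, 2 and 3 counts in the 2D-primed and 10, 13, 18 and 10 counts in the 3D-primed libraries, or 0, 0.259, 0.0814 and 0.127 CPM against 0.377, 0.576, 0.645 and 0.397 CPM. The log2 fold change was 2.04 ± 0.59 (SE, edgeR adjusted p = 0.012), and it ranged from 1.66 without 2D-primed replicate 1 to 2.73 without 2D-primed replicate 2. CYP3A7, the main CYP3A enzyme of fetal liver, was the most abundant CYP3A gene per length in 3D-primed cells. It stood at 4.40, 4.41, 3.70 and 3.71 CPM across 2D-primed and 9.77, 8.50, 8.85 and 8.50 CPM across 3D-primed libraries, a log2 fold change of 1.14 ± 0.10 (SE, edgeR adjusted p = 3.5e-06). Of the 31-base words in its transcript, 72.9% also occur in another gene, nearly all of them in the readthrough CYP3A7-CYP3A51P that was listed at 0, so that the division of reads between both is uncertain.

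CYP3A5, which metabolises many of the same drugs as CYP3A4, fell. Its level was 6.19, 5.62, 5.58 and 5.15 CPM across 2D-primed and 2.98, 3.36, 3.80 and 2.98 CPM across 3D-primed libraries, with no overlap. The log2 fold change was -0.78 ± 0.12 (SE, edgeR adjusted p = 2e-04). CYP3A4, the main drug-oxidising enzyme of adult liver, averaged 0.590 ± 0.248 CPM across 2D-primed and 0.479 ± 0.192 CPM in 3D-primed libraries (SD, n = 4) and was not called, at a log2 fold change of -0.31 ± 0.39 (SE, edgeR adjusted p = 0.51). Per kilobase of the canonical transcript, the mean levels in 3D-primed cells were 4.28 CPM for CYP3A7, 1.91 for CYP3A5, 0.292 for CYP3A43 and 0.172 for CYP3A4, and in 2D-primed cells 1.95, 3.27, 0.0684 and 0.212. The leading CYP3A transcript was thus CYP3A5 across 2D-primed and CYP3A7 in 3D-primed cells.

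CYP2S1, an enzyme known mostly from epithelia outside the liver, had the sharpest fall among the drug enzymes. It stood at 20.6, 23.9, 24.1 and 21.1 CPM across 2D-primed and 3.96, 5.09, 6.24 and 4.61 CPM across 3D-primed libraries, so that every 3D-primed library was below every 2D-primed library. The level was 4.50-fold lower, a log2 fold change of -2.17 ± 0.12 (SE, edgeR adjusted p = 2.3e-07). Its transcript shares no 31-base word with another gene. On chromosome 19 it lies at 41193210 to 41207539, at the end of a run of 6 P450 genes over 364 kb in which CYP2A6, CYP2A7, CYP2B6, CYP2A13 and CYP2F1 stayed under the count minimum.

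CYP2W1, an enzyme described in fetal gut and in tumours, was the P450 gene with the most counts in both groups. Its libraries read 53.0, 55.8, 47.4 and 51.4 CPM across 2D-primed and 74.9, 68.8, 62.8 and 77.6 CPM across 3D-primed cells. The change was modest and did not overlap, at a log2 fold change of 0.45 ± 0.07 (SE, edgeR adjusted p = 0.00028). CYP2J2, which makes epoxides of arachidonic acid, read 10.1, 9.64, 9.40 and 8.95 CPM across 2D-primed and 16.7, 15.8, 18 and 13.7 CPM across 3D-primed libraries. That is a log2 fold change of 0.75 ± 0.09 (SE, edgeR adjusted p = 2.5e-05). CYP2U1, which hydroxylates long-chain fatty acids, rose from 2.47, 2.85, 3.01 and 3.16 CPM in 2D-primed to 5.55, 6.24, 5.84 and 6.19 CPM in 3D-primed libraries. Here the log2 fold change was 1.05 ± 0.11 (SE, edgeR adjusted p = 1.5e-05), and all 3 genes were higher in each 3D-primed library than in any 2D-primed library.

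The best-known adult liver enzymes of the CYP2 family were rare or under the minimum. CYP2D6, which clears many antidepressants and opioids, averaged 0.411 ± 0.150 CPM across 2D-primed and 0.658 ± 0.328 CPM in 3D-primed libraries (SD, n = 4). It was not called, at a log2 fold change of 0.69 ± 0.46 (SE, edgeR adjusted p = 0.22). Without 3D-primed replicate 2, its lowest library, the value was 0.98 (edgeR adjusted p = 0.028). That was the only 1 of 13 alternatives in which CYP2D6 was called, with edgeR or DESeq2 adjusted p up to 0.41 in the others. Its neighbour CYP2D7 averaged 0.197 ± 0.229 and 0.181 ± 0.184 CPM and was not called either, at a log2 change of -0.079 (edgeR adjusted p = 0.95). Of their 31-base words, 56.7% in CYP2D6 and 49.9% in CYP2D7 occur in other genes, mostly in the other one, so that their separate counts are uncertain.

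CYP2E1, the ethanol-inducible enzyme of adult liver, had 6, 76, 7 and 8 counts across 2D-primed and 28, 31, 12 and 7 counts across 3D-primed libraries. The single 2D-primed replicate 2 held most of its counts in that group. With all 8 libraries the log2 fold change was -0.42 ± 0.84 (SE, edgeR adjusted p = 0.68), and without that library it was 1.36 (edgeR adjusted p = 0.065). CYP3A4 also had its highest count there, with 9, 22, 11 and 13 against 15, 16, 9 and 8 counts, and its log2 fold change was 0.014 without that library (edgeR adjusted p = 0.98). Other liver genes were high in the same library, picked after their values were seen. The alcohol dehydrogenase ADH1B had 3, 54, 1 and 4 counts across 2D-primed and 19, 22, 12 and 13 across 3D-primed libraries. The acute-phase gene CRP had 0, 38, 1 and 0 against 9, 9, 3 and 6 counts, and GC, the vitamin D carrier of plasma, had 0, 38, 4 and 9 against 11, 11, 9 and 4 counts. Their part in the CYP2E1, CYP3A4 and CYP1A2 values was not tested. The number of genes with at least 10 counts and more than 2 times the level of every other library of the group was 45 in that library and 24 to 58 in the other 7.

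**Figure D3:**
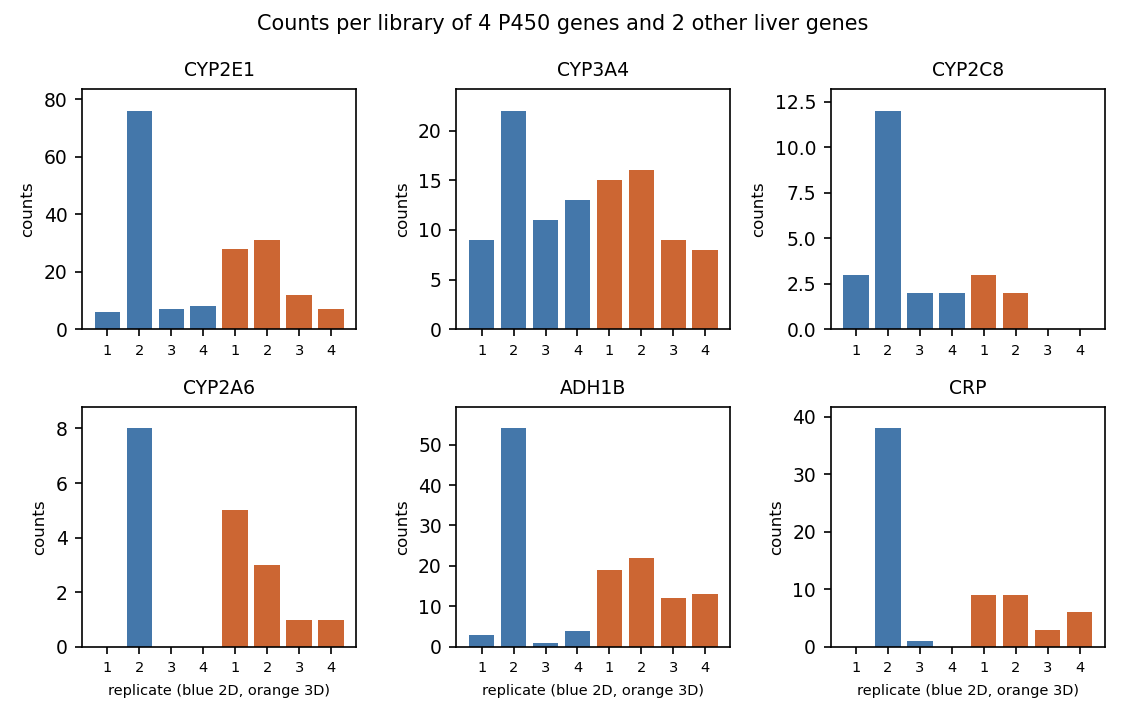
Counts per library (not scaled, bars start at 0 and each panel has its own axis) of CYP2E1, CYP3A4, CYP2C8 and CYP2A6 and of the liver genes ADH1B and CRP, blue for 2D-primed and orange for 3D-primed replicates. In each panel 2D-primed replicate 2 is the highest library, with 76 counts of CYP2E1 and 54 of ADH1B.

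Of the 11 drug enzymes under the minimum, 7 had counts. CYP2C8, which clears the taxane paclitaxel, ranged from 0 to 12 counts, with its highest in 2D-primed replicate 2. CYP2A6, the nicotine-oxidising enzyme, ranged from 0 to 8 counts with its highest in the same library. CYP2C18 ranged from 0 to 2, CYP2C19 from 0 to 3, CYP2B6 from 0 to 2 and CYP1B1 from 0 to 3 counts. No count was found for CYP2A7, CYP2A13, CYP2F1 and CYP3A7-CYP3A51P. Over all libraries together, with 195521526 counts, a count of 0 allows a level of up to 0.0153 CPM (3 counts, counting error only).

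The CYP4 family, whose members put a hydroxyl group on the end of fatty acids, leukotrienes and the side chains of vitamins E and K, held 12 members, of which 7 were tested. In 3D-primed cells 5 rose, 1 fell and 1 was not called, with a median log2 fold change of 0.89. The called share was 85.7% of 7 genes, beside 63.9% over all genes tested (32.4% higher and 31.6% lower). The summed level was 46.2 to 53.2 CPM across 2D-primed and 80.1 to 87.0 CPM across 3D-primed libraries, without overlap. CYP4F2, which hydroxylates vitamin K, vitamin E and leukotrienes, rose most.

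CYP4F2 stood at 1.24, 1.38, 1.34 and 1.35 CPM across 2D-primed and 5.55, 6.07, 5.31 and 4.17 CPM across 3D-primed libraries. The 2D-primed values lay close together and far below every 3D-primed value, with a log2 fold change of 1.98 ± 0.15 (SE, edgeR adjusted p = 1.3e-06), or 3.95-fold. CYP4F12, an enzyme with fatty acid and drug substrates, read 10.2, 11.1, 9.36 and 10.6 CPM against 19.4, 18, 21.0 and 21.1 CPM. Its log2 fold change was 0.95 ± 0.07 (SE, edgeR adjusted p = 1.8e-06). CYP4F11, which acts on long-chain fatty acids and vitamin K, read 9.26, 8.90, 8.63 and 8.73 CPM across 2D-primed and 16.3, 17.4, 16.5 and 17.8 CPM across 3D-primed libraries, a log2 fold change of 0.93 ± 0.06 (SE, edgeR adjusted p = 3.4e-07). Both genes were higher by 1.93-fold and 1.91-fold, and neither had overlapping groups.

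CYP4F3, a leukotriene hydroxylase, was the CYP4 gene with the most counts. Its level was 24.1, 22.2, 20.1 and 21.2 CPM across 2D-primed and 29.6, 29.0, 32.7 and 29.2 CPM across 3D-primed libraries, a log2 fold change of 0.46 ± 0.07 (SE, edgeR adjusted p = 0.00013). CYP4F2 shares 36.0% of its 31-base words and CYP4F3 shares 22.5% of its own with other genes, mostly with each other, so that reads may have been divided between them. CYP4V2, a fatty acid hydroxylase whose loss causes a crystalline retinal dystrophy, lies apart from these genes on chromosome 4. It read 7.70, 6.53, 5.78 and 6.71 CPM across 2D-primed and 8.71, 8.86, 10.9 and 10.2 CPM across 3D-primed libraries, a log2 fold change of 0.54 ± 0.11 (SE, edgeR adjusted p = 0.0014).

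CYP4F22, which makes the ultra-long-chain hydroxy acids of skin ceramides, went the other way and passed the count minimum through its 2D-primed libraries alone. It had 9, 8, 20 and 12 counts across 2D-primed and 0, 2, 2 and 5 counts across 3D-primed libraries, or 0.412, 0.346, 0.814 and 0.506 CPM against 0, 0.0886, 0.0717 and 0.199 CPM. The groups did not overlap, and the log2 fold change was -2.49 ± 0.62 (SE, edgeR adjusted p = 0.0051). Without 3D-primed replicate 4, its highest library in that group, the value was -3.20, and without 2D-primed replicate 3 or replicate 4 the gene fell under the count minimum. CYP4A11, the laurate hydroxylase of liver and a known target of PPARA, averaged 0.195 ± 0.110 CPM across 2D-primed and 0.364 ± 0.186 CPM in 3D-primed libraries (SD, n = 4) and was not called, at a log2 fold change of 0.89 ± 0.55 (SE, edgeR adjusted p = 0.18). It shares 55.2% of its 31-base words with other genes, nearly all with CYP4A22. Among the CYP4 genes under the minimum, CYP4A22 ranged from 0 to 3 counts, CYP4F8 from 0 to 4, CYP4B1 from 0 to 1 and CYP4X1 from 0 to 1, and CYP4Z1 was at 0.

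Neighbouring P450 genes did not always change alike. On chromosome 19, the 6 CYP4F genes lie within 426 kb (15508525 to 15934867, GRCh38). In chromosomal order the log2 fold changes were -2.49 for CYP4F22, 0.46 for CYP4F3, 0.95 for CYP4F12, 1.98 for CYP4F2 and 0.93 for CYP4F11, with CYP4F8, between CYP4F22 and CYP4F3, under the minimum. On chromosome 7, the CYP3A genes lie within 218 kb (99648194 to 99866093), and their values were -0.78 for CYP3A5, 1.14 for CYP3A7, -0.31 for CYP3A4 and 2.04 for CYP3A43, so that called genes of both directions sat in 1 cluster. On chromosome 15, CYP11A1, which lies with the CYP1A pair within 419 kb, was not called.

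**Figure D4:**
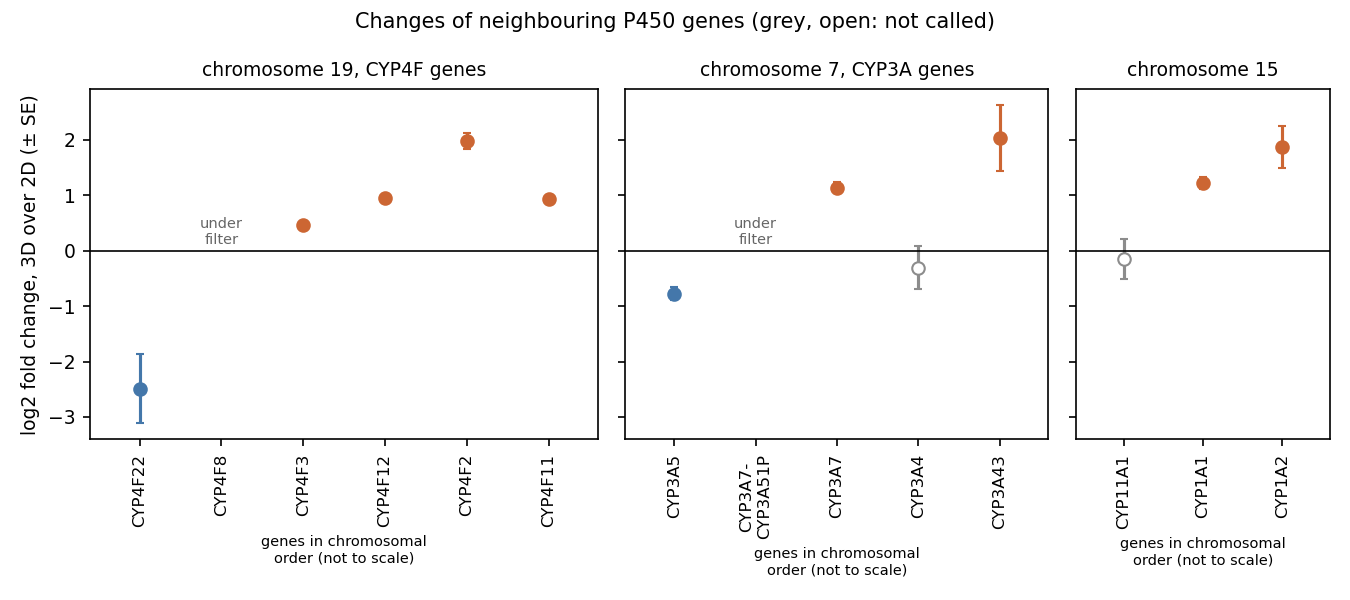
Log2 fold changes of 3D-primed over 2D-primed with bars of 1 standard error for P450 genes in 3 chromosomal clusters, drawn in gene order and not to scale, where orange rose, blue fell and open grey points were not called. CYP4F22 at -2.49 sits beside 4 CYP4F genes between 0.46 and 1.98, and CYP3A5 at -0.78 sits beside CYP3A7 at 1.14.

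The vitamin and retinoid enzymes held 7 members, of which 2 were tested. CYP24A1, which breaks down active vitamin D, fell in 3D-primed cells, and CYP27B1, which makes active vitamin D, was not called. Summed over the 7 genes, the level was 18.2 to 23.6 CPM across 2D-primed and 3.17 to 4.23 CPM across 3D-primed libraries, nearly all of the difference being CYP24A1.

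CYP24A1 lies on chromosome 20 (54153446 to 54173986, GRCh38) and shares no 31-base word with another gene. It stood at 22.6, 17.5, 17.7 and 17.3 CPM across 2D-primed and 2.15, 2.13, 3.12 and 1.99 CPM across 3D-primed libraries. Both groups were tight but for 2D-primed replicate 1 and 3D-primed replicate 3, which were the highest of their groups, and the groups lay far apart. The level was 7.94-fold lower in 3D-primed cells, a log2 fold change of -2.99 ± 0.15 (SE, edgeR adjusted p = 1.2e-07). CYP27B1 averaged 0.686 ± 0.078 CPM across 2D-primed and 0.919 ± 0.202 CPM in 3D-primed libraries (SD, n = 4), a log2 fold change of 0.42 ± 0.24 (SE, edgeR adjusted p = 0.16). Per kilobase, CYP24A1 was at 5.72 CPM and CYP27B1 at 0.289 CPM in 2D-primed cells, against 0.715 and 0.387 CPM in 3D-primed cells.

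CYP2R1, which carries out the first hydroxylation of vitamin D in liver, stayed under the minimum. It had 1, 8, 1 and 0 counts across 2D-primed and 3, 5, 8 and 9 counts across 3D-primed libraries, 10 against 25 in all, and the groups overlapped through 2D-primed replicate 2. The CYP26 genes, which break down retinoic acid, were rarer still. CYP26A1 had 2, 3, 3 and 3 counts across 2D-primed and 1, 0, 0 and 1 across 3D-primed libraries. In a fit with no count minimum it was the only member under the minimum that was called, at a log2 change of -2.31 (edgeR adjusted p = 0.037), on 11 against 2 counts. CYP26B1 ranged from 1 to 5 counts and CYP27C1, a retinoid desaturase of skin, from 0 to 1, and CYP26C1 was at 0.

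CYP26A1 is a textbook target of the retinoic acid receptors, which bind direct repeats of AGGTCA or AGTTCA with a spacer. A search of the member windows on both strands for such repeats with 5 bases between found 1 member with a match, which is shown for that reason. The 30 bases around it are read from chr10:93073797-93073826 (plus strand, GRCh38.p14, RefSeq) with the match in capitals, which reads as the repeat on the reverse strand and begins 90 bases before the second of the gene's RefSeq starts.
CYP26A1: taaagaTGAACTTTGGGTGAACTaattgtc
Such a repeat occurs in 7 of the 35116 windows, or 0.0199%. The repeat with 3 bases between, the word of the vitamin D receptor, occurs in 5 windows, or 0.0142%, and in none of the 51 windows of the 38 members that had a window. CYP24A1 was not among those 38.

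The steroid and other enzymes held 9 members, of which 4 were tested, and their summed level overlapped between the groups, at 42.3 to 45.6 CPM across 2D-primed and 39.2 to 49.3 CPM across 3D-primed libraries. CYP20A1, an enzyme with no settled substrate, read 17.0, 17.9, 17.1 and 17.7 CPM across 2D-primed and 19.3, 19, 18.9 and 19.3 CPM across 3D-primed libraries. The groups did not overlap, but the change was only 1.1-fold, a log2 fold change of 0.13 ± 0.05 (SE, edgeR adjusted p = 0.025), and DESeq2 did not call it (adjusted p = 0.15). CYP19A1, the aromatase that makes estrogens, averaged 22.8 ± 1.2 CPM and 23.3 ± 4.2 CPM (SD, n = 4), a log2 fold change of 0.027 ± 0.12 (SE, edgeR adjusted p = 0.85). CYP17A1, which makes androgen precursors, averaged 2.96 ± 0.26 CPM and 2.63 ± 0.47 CPM, at -0.17 ± 0.15 (edgeR adjusted p = 0.35). CYP11A1, which cleaves the cholesterol side chain, averaged 0.360 ± 0.135 CPM and 0.326 ± 0.055 CPM, at -0.16 ± 0.36 (edgeR adjusted p = 0.72). None of these 3 was called. CYP46A1 ranged from 2 to 8 counts, CYP39A1 from 0 to 5 and CYP21A2 from 0 to 9, and CYP11B1 and CYP11B2 were at 0.

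All members together summed to 211 to 228 CPM across 2D-primed and 254 to 267 CPM across 3D-primed libraries. The make-up of that sum shifted. CYP2W1 was the leading gene in both, with 23.6% ± 0.9 of the member counts across 2D-primed and 27.3% ± 2.8 in 3D-primed libraries (SD, n = 4). CYP2S1 went from 10.2% ± 0.9 to 1.91% ± 0.36 and CYP24A1 from 8.56% ± 1.09 to 0.899% ± 0.187. CYP4F12 moved from 4.69% ± 0.24 to 7.64% ± 0.58, CYP4F11 from 4.05% ± 0.10 to 6.53% ± 0.44 and CYP1A1 from 2.80% ± 0.34 to 5.46% ± 0.61. Per kilobase of transcript, the highest mean levels in 2D-primed cells were CYP2W1 at 22.3 CPM, CYP2S1 at 8.58, CYP4F12 at 6.01, CYP24A1 at 5.72, CYP19A1 at 5.19 and CYP2J2 at 5.06. In 3D-primed cells the order was CYP2W1 at 30.6 CPM, CYP4F12 at 11.6, CYP2J2 at 8.54, CYP4F3 at 5.96, CYP4F11 at 5.57 and CYP1A1 at 5.48. CYP2S1 and CYP24A1 were not among the first 6 there.

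**Figure D5:**
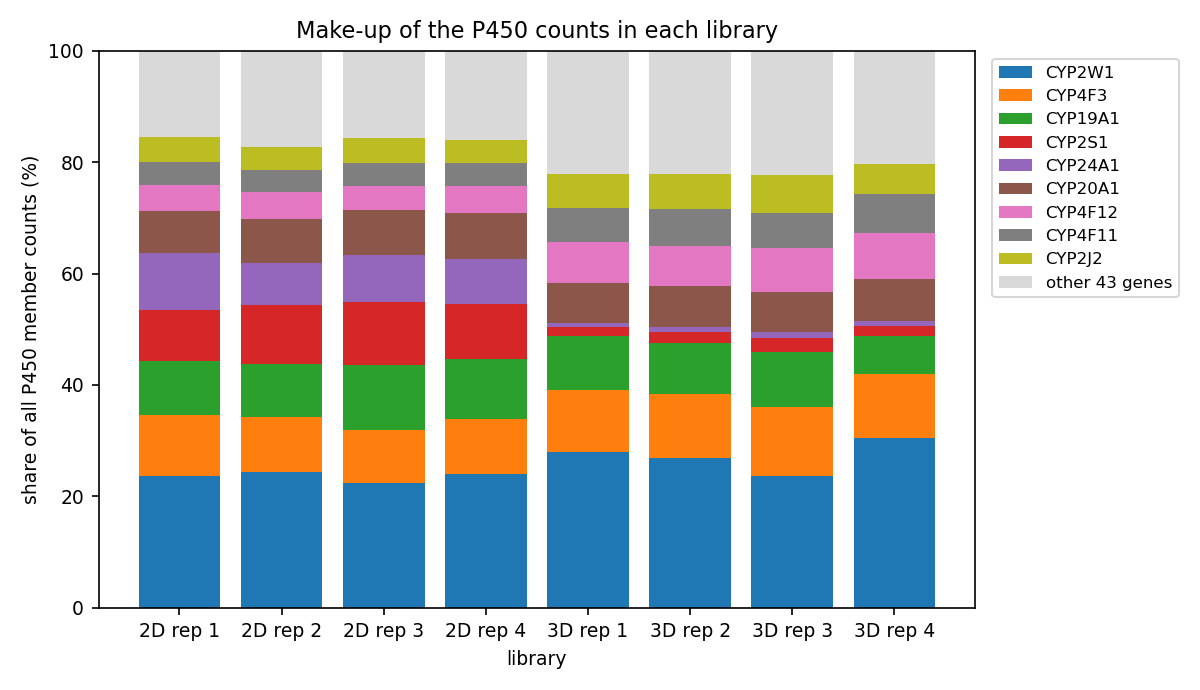
Share of all P450 member counts (%) taken by 9 genes and by the other 43 in each library, stacked to 100%. CYP2S1 (red) and CYP24A1 (purple) narrow from 10.2% and 8.56% on average in the 4 2D-primed libraries to 1.91% and 0.899% in the 4 3D-primed libraries, while CYP4F12, CYP4F11 and CYP2J2 widen.

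Partners and regulators of the P450 enzymes were examined as lists. Over all genes tested, 32.4% were called higher and 31.6% lower, and the lists were not tested against these shares. Of 8 redox partners, 3 rose, 2 fell and 3 were not called. The reductase POR, which hands electrons to the P450 enzymes of the endoplasmic reticulum, fell slightly, from 484 ± 17 to 441 ± 12 CPM (SD, n = 4), a log2 change of -0.14 (edgeR adjusted p = 0.011). PGRMC1, a heme protein that binds several P450 enzymes, rose by 0.91 (edgeR adjusted p = 5.2e-08) and the cytochrome CYB5B by 0.62 (edgeR adjusted p = 8.7e-06), while the reductase CYB5R3 fell by 0.74 in log2 units (edgeR adjusted p = 3.9e-06). Of 8 heme synthesis enzymes, 4 rose and 4 were not called. The steepest were FECH, the last step of the pathway, at 0.81 (edgeR adjusted p = 1.6e-05) and UROS at 0.80 (edgeR adjusted p = 5.9e-06), both as log2 fold changes.

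Among 13 receptors and their partners 9 were tested, with 1 higher, 5 lower and 3 not called. Beside this stand the 32.4% of all genes tested that were called higher and the 31.6% called lower. AHR itself fell from 91.3 ± 4.3 to 58.1 ± 7.0 CPM (SD, n = 4), a log2 change of -0.65 (edgeR adjusted p = 3.8e-05), while its targets CYP1A1 and CYP1A2 rose. Other AHR targets moved in either direction: of 5 listed, 3 were tested, with TIPARP at -0.54 (edgeR adjusted p = 4.3e-05), NQO1 at 0.52 (edgeR adjusted p = 0.00035) and UGT1A6 at -2.52 (edgeR adjusted p = 0.00035). UGT1A6 shares exons with the other UGT1A genes, so that its count is uncertain, and its 3D-primed libraries alone would not have passed the count minimum. NR1I2 fell from 11.7 ± 0.8 to 9.31 ± 0.77 CPM, a log2 change of -0.33 (edgeR adjusted p = 0.0037). NR1I3 averaged 0.740 ± 0.046 and 1.07 ± 0.33 CPM and was not called at 0.53 (edgeR adjusted p = 0.093), or 0.67 without 3D-primed replicate 4 (edgeR adjusted p = 0.043). VDR, the vitamin D receptor that switches on CYP24A1, rose from 0.389 ± 0.093 to 0.686 ± 0.067 CPM, a log2 change of 0.81 (edgeR adjusted p = 0.023), which DESeq2 did not call (adjusted p = 0.094). Without 2D-primed replicate 3, 2D-primed replicate 4 or 3D-primed replicate 2 the VDR values were 0.69, 0.75 and 0.76, with edgeR adjusted p of 0.062, 0.058 and 0.054. PPARA, the fatty acid receptor that controls CYP4A genes, fell by 0.58 in log2 units (edgeR adjusted p = 9.1e-06).

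The counts of the next 3 lists also stand beside 32.4% of all genes tested called higher and 31.6% called lower. Of 14 genes of retinoid handling, 9 were tested, with 5 higher, 1 lower and 3 not called. ADH4, an alcohol dehydrogenase that also oxidises retinol, rose from 9.84 ± 1.78 to 75.3 ± 8.8 CPM (SD, n = 4), a log2 change of 2.94 (edgeR adjusted p = 5.2e-08). RDH11, a retinal reductase, rose by 1.32 in log2 units (edgeR adjusted p = 9.8e-09). Of 9 genes of vitamin D and steroid handling, 8 were tested, with 4 higher, 2 lower and 2 not called. STAR, which brings cholesterol into mitochondria, rose by 2.04 (edgeR adjusted p = 1.4e-06) and HSD17B2, which inactivates estradiol and testosterone, by 1.39 (edgeR adjusted p = 1.5e-07). LRP2, the uptake receptor for carrier-bound vitamin D, passed the count minimum through its 2D-primed libraries alone and fell by 2.00 (edgeR adjusted p = 0.00056) and SRD5A1, a steroid reductase, by 0.62 in log2 units (edgeR adjusted p = 3.1e-05). Of 14 other phase I enzymes, 10 were tested, with 7 higher, 1 lower and 2 not called. The aldehyde oxidase AOX1 rose by 0.65 (edgeR adjusted p = 2.9e-05) and the monoamine oxidase MAOA by 0.56 (edgeR adjusted p = 3.2e-06), and the carboxylesterase CES1 fell by 0.39 in log2 units (edgeR adjusted p = 0.00018).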

How the data were processed

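Polyadenylated RNA of 8 HepG2 samples was measured by RNA-seq, 4 libraries a group, grouped by label. The authors deposited estimated counts per gene, 1 file a library. Reads were quantified by Salmon against human cDNA of Ensembl (GRCh38) and summed to genes by tximport, and whether a length correction was set is not given in the sources used here. The values are whole numbers and were used as they are. Identifiers were joined to GENCODE symbols, positions and canonical transcripts (GRCh38), with 78% of identifiers and 97.4% of counts matched. Ensembl cDNA also lists genes of alternate haplotypes under identifiers that were not joined, so that counts of genes with such copies, among them CYP2D6, CYP2D7 and CYP21A2, may be too low.

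A minimum of 10 counts in 2 or more libraries was required, as in the study, and the groups were compared with edgeR 4.0.16 (TMM, glmQLFit, glmQLFTest; R 4.3.3) over all 13943 genes, with Benjamini-Hochberg adjustment at 0.05. The standard error is the size of the log2 fold change over the square root of F. Levels per length are CPM over the kilobases of the canonical transcript. The scripts were tested on simulated data. With 4 libraries a group an exact permutation test of 1 gene cannot go below p = 0.029, two-sided. The labels do not say that the libraries are separate cultures, so that p-values measure the spread between these samples. Libraries of a group differed by more than counting noise, with a chi-square per degree of freedom of 6.34 to 17.4.

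Every tested member was named, with its 8 values where called, and from each pathway list at most the 2 called genes with the largest rise and the 2 with the largest fall were named, besides POR, AHR, NR1I2, NR1I3 and VDR. The members and lists were chosen with earlier results of these data known. Alternatives were DESeq2 1.42.0, other size factors, no count minimum, 10 counts in all 8 libraries, a replicate block and leaving out each library. Promoter sequences are RefSeq's (GRCh38.p14), matched by symbol for 38 of 52 members. Human liver tissue and the protein, secretion and drug experiments of the study were not analysed here. The values of 1 member and 1 listed gene are not reported here.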

Additional observations from a re-analysis of the deposited data

Results flagged for a closer look

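In each group of 4 libraries, the highest or lowest library was compared with the others by Dixon's ratio, which chance alone passes in about 1 group in 20. Of 52 groups of tested P450 genes, 5 passed it, and of 100 groups over all named genes, 10 did. CYP2E1 in 2D-primed replicate 2 stood at 3.29 CPM, against 0.275 to 0.338 CPM in the others of its group. CYP24A1 stood at 22.6 CPM in 2D-primed replicate 1, against 17.3 to 17.7 CPM, and at 3.12 CPM in 3D-primed replicate 3, against 1.99 to 2.15 CPM. CYP4F3 in 3D-primed replicate 3 stood at 32.7 CPM, against 29.0 to 29.6 CPM, and CYP27B1 in 2D-primed replicate 4 at 0.802 CPM, against 0.641 to 0.651 CPM.

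Among the partners and regulators, 3D-primed replicate 3 was low for CYB5B at 207 CPM, against 246 to 251 CPM, and high for TIPARP at 23.3 CPM, against 19.2 to 19.8 CPM. 2D-primed replicate 3 was low for FECH at 9.32 CPM, against 11.3 to 11.6 CPM, and for HSD17B2 at 18.9 CPM, against 21.5 to 22.0 CPM. PPARA in 3D-primed replicate 2 stood at 75.8 CPM, against 85.5 to 86.9 CPM.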

How the results depend on the processing

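Over the alternatives, 328 values of the tested P450 genes kept their direction and their side of the threshold, and no direction changed with DESeq2, other size factors or the count minimum. The median log2 fold change of all genes lay between -0.036 and 0.042 in every setting. CYP20A1 stayed called in 6 of 14 alternatives, with adjusted p from 0.011 to 0.15. The values that changed sign were all of genes that were not called: CYP2E1 at 1.36 without 2D-primed replicate 2, CYP3A4 at 0.014 without that library, CYP2D7 at 0.38 without 2D-primed replicate 1 and at 0.20, 0.11 and 0.076 without 3D-primed replicates 2, 3 and 4, and CYP19A1 at -0.037 and -0.044 without 3D-primed replicates 1 and 3. On leaving out single libraries these genes ranged from -0.82 to 1.36, from -0.55 to 0.014, from -0.50 to 0.38 and from -0.044 to 0.15, in the order given. The count of steroid and other enzymes called higher, 1, was 0 with DESeq2, with no count minimum and with the replicate block, and 0 to 1 on leaving out single libraries. The CYP4 genes called lower, 1, were 0 where 10 counts were asked of all 8 libraries and 0 to 1 on leaving out single libraries, since CYP4F22 was then not tested. Vitamin and retinoid enzymes called lower were 2 with no count minimum. Libraries with the same replicate number showed no common deviation, with correlations from -0.043 to 0.057, against -0.0825 to 0.11 for other numbers. Such correlations cannot tell whether libraries of the same number were grown or handled together. With the replicate block 12 members were higher and 4 lower, beside 4267 higher and 4223 lower of the 13943 genes tested. CYP2E1 then stood at 0.10 and CYP2D7 at 0.042, neither called, CYP20A1 was not called (edgeR adjusted p = 0.06) and nor was VDR (edgeR adjusted p = 0.052). Genes under about 1 CPM, such as CYP3A43, CYP1A2 and CYP4F22, rest on few counts, and the cause of the changes listed here was not tested.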
